A study of Nothobranchius furzeri with 3 samples.

Results

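The basal layer of the fin epidermis of aged turquoise killifish was compared with that of young fish. Nothobranchius furzeri is a short-lived teleost in which ageing can be followed within months. The comparison holds 8 libraries of the 11 in the count table, chosen by their labels alone: 4 from aged fish kept in DMSO and 4 from young fish kept in DMSO. Another 3 libraries came from aged fish given tunicamycin at 1 µg/mL. They entered the filter on low counts, the scaling and the estimate of spread in the statistical fit, but not the comparison itself. Both groups shared DMSO, and the labels give the species alone as genotype, without a strain, transgene or deletion. The study kept fish of the GRZ line and of a transgenic line, and which was used here is not stated. The ages of these fish and the number of fish behind a library are not given in the sources used here. The methods speak of biological replicates, and p-values measure the spread between these libraries. The labels name the skin basal layer of the fin, whereas the protocol speaks of trunk and fin sections. RNA was read by photo-isolation chemistry (PIC), in which reverse transcription primers are caged and only cDNA from UV-irradiated cells is amplified. The irradiated cells were p63-positive cells of the basal layer, and the values are counts of unique molecular identifiers (UMIs), each marking an RNA molecule. All 22954 genes of the table were considered, and 22171 had a count in at least 1 of the 8 libraries.

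Basal keratinocytes rest on the basement membrane and are the dividing layer that renews the epidermis. They hold keratin filaments anchored by hemidesmosomes to laminin and collagen IV, and they depend on the transcription factor p63, encoded by tp63. Below them in a fin lie the dermis with its fibroblasts and collagen I fibres, the bony fin rays, nerves, vessels and pigment cells, and striated muscle at the fin base and in the trunk. A UV-irradiated region is a piece of a section, so RNA of these neighbours can enter a library. Genes of muscle, dermis and other tissues are therefore described apart from those of keratinocytes.

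Total counts were 37655 to 265509 in aged libraries and 35366 to 298033 in young libraries, and their means did not differ beyond the spread (133701 in aged and 144470 in young libraries, two-sided exact permutation test, p = 0.914). With 4 libraries a group this test cannot go below 0.0286. Aged 1, aged 3 and young 3 had fewer than 100000 counts, and 1 count there was worth 26.6, 19.5 and 28.3 counts per 1000000 (CPM), against 3.36 to 9.36 CPM in the other 5 libraries. The number of genes with a count was 11886 to 16637 in aged libraries and 9205 to 18211 in young libraries. When every library was thinned to 35366 counts, 9622 ± 1974 genes were detected in aged libraries and 8067.5 ± 1516 in young libraries (SD, n = 4 each, exact permutation p = 0.229). The labels give 1 library name for each condition, so any difference in preparation cannot be told apart from the condition.

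The label was checked against keratinocyte genes. krt5, a keratin of basal keratinocytes, was the gene with the most counts in all 8 libraries. Its level was 32187, 16335, 28663 and 21273 CPM in aged libraries 1 to 4, against 36192, 27048, 57541 and 14532 CPM in young libraries 1 to 4, and the same order of libraries is kept below. tp63, the marker used to choose the cells, measured 319, 1145, 799 and 1381 CPM in aged libraries, against 1544, 1010.1, 424 and 1309 CPM in young libraries. tp63 was thus found in every library, with its lowest levels in the shallow libraries aged 1 and young 3. krt15, another basal keratin, was more uneven, at 106, 7476, 1091 and 7531 CPM in aged libraries, against 6316, 2878, 1018 and 6063 CPM in young libraries. The 3 lowest of these 8 values belong to the 3 shallow libraries.

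Each of the 3963 genes that passed a filter on low counts was tested with edgeR (quasi-likelihood), aged over young, in a single model of the 11 libraries. The filter also used the tunicamycin libraries, and with the aged and young libraries alone it passed 1520 genes. The model's estimates come from the 3963 genes. Its fold changes use TMM scaling factors (up to 1.87 in aged and 1.23 in young libraries), so they can differ from ratios of the CPM values, which are relative to the library total alone. A gene was called at a Benjamini-Hochberg adjusted p below 0.1. Aged libraries differed from young libraries in 28 genes, 0.707% of those tested. Of these, 3 were higher in aged libraries (0.0757%) and 25 were lower (0.631%). At an unadjusted p below 0.05 there were 242 genes (6.11%), 77 of them higher (1.94%) and 165 lower (4.16%). The median log2 fold change over all tested genes was 0.05 and the median standard error 0.59. Aged libraries lay wholly above young libraries in CPM for 52 tested genes (1.31%) and wholly below them for 93 (2.35%). Full separation in a given direction is a single grouping of the 70 possible, so some genes show it without any difference. Lack of overlap is therefore given below as description only. Scaling by total counts alone moved the median of all genes to 0.20.

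The number of called genes depended on which libraries were in the fit. With only the aged and young libraries, edgeR tested 1520 genes and called 0, with a lowest adjusted p of 0.101 and 91 genes at an unadjusted p below 0.05. Of the 28 genes, 19 were tested there, all 19 at an unadjusted p below 0.05. Other tools on the same 8 libraries called more, with 71 genes for DESeq2 and 19 for limma voom. Without aged 4, 1 gene was called, BX927253.1, and without aged 3, 8 genes. The count was 9 without young 2, 17 without young 4 and 18 without aged 2. BX927253.1 was called in all 8 fits that left out 1 library, and pgam2, myl1, htra1a, mss51 and MYBPHB in 7 of them, every one except that without aged 4. Without the 3 shallow libraries 38 of 5302 genes were called, 35 of them lower in aged libraries, and 23 of the 28 were among them.

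**Figure D1:**
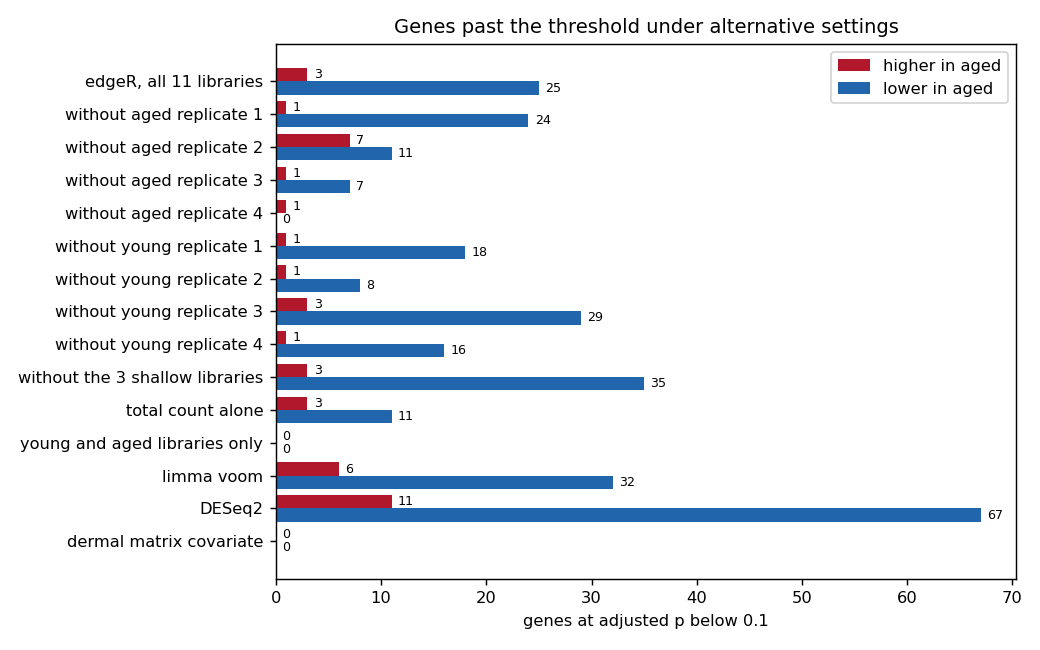
Number of genes at an adjusted p below 0.1 (horizontal axis) in the fit of all 11 libraries and under alternative settings (vertical axis). Red bars are genes higher in aged libraries and blue bars genes lower in aged libraries. The fit of all 11 libraries gives 3 higher and 25 lower, the fit without aged 4 gives 1 higher and 0 lower, and DESeq2 gives 11 higher and 67 lower.

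The genes that fell in aged libraries were led by genes of skeletal muscle. Of 111 muscle genes listed, 44 were tested, 35 were lower in aged libraries and 8 of those passed the threshold. Of all tested genes, 0.631% were called lower. The median log2 fold change of the 44 was -1.57, against 0.05 over all tested genes. At an unadjusted p below 0.05, 25 of the 44 were lower (4.16% of all tested genes) and 1 was higher (1.94% of all tested genes). These genes encode the contractile filaments and the calcium and energy supply of striated fibres. In bulk samples, fewer cells of a type and less RNA per cell cannot be told apart. Summed over the list, muscle genes took 39543, 10233, 34274 and 12478 CPM in aged libraries, against 38306, 86099.6, 139767 and 39616 CPM in young libraries. Aged 1 overlapped young 1, and aged 2 and aged 4, the deeper aged libraries, were the lowest of all. With this sum as a covariate edgeR called 1093 genes, 436 higher and 657 lower, 24 of the 28 among them. The sum includes called muscle genes, overlapped only at aged 1 and young 1, and was highest in the shallow libraries of each group. This fit therefore cannot tell muscle RNA apart from age or depth, and no conclusion is drawn from its calls.

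Among genes of the thick and thin filaments, myl1, a myosin light chain of fast fibres, had 212, 41.4, 39.0 and 94.3 CPM in aged libraries, against 449, 1308, 1272 and 601 CPM in young libraries. Every aged library lay below every young one, a 10.8-fold difference (log2 fold change -3.44 ± 0.61 SE, edgeR adjusted p = 0.0237). TNNI2, the troponin I of fast fibres, had 53.1, 22.6, 19.5 and 49.9 CPM in aged libraries, against 178, 145, 254 and 121 CPM in young libraries, without overlap (log2 fold change -2.24 ± 0.51, adjusted p = 0.0458). MYBPHB, a myosin-binding protein, had 53.1, 41.4, 97.4 and 55.5 CPM in aged libraries, against 225, 327, 339 and 265 CPM in young libraries. The young values were close to each other and all above the aged values, by 5.04-fold (adjusted p = 0.0237). ACTA1, the actin of skeletal muscle, was among the 10 genes with the highest mean level, at 2788, 1179, 2299 and 1913 CPM in aged libraries, against 6690.1, 15094, 16032 and 8076 CPM in young libraries. Its groups did not overlap either, and its adjusted p of 0.108 in edgeR lay just outside the threshold (log2 fold change -2.60 ± 0.69). The adjusted p of ACTA1 was 5.99e-06 in DESeq2 and 0.0814 in limma voom. TPM2 (-2.41), myl2a (-2.15), tnni1d (-1.91), TNNT3 (-1.77) and MYBPC2B (-1.67) had negative log2 fold changes at an unadjusted p below 0.05 and did not pass after adjustment.

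The muscle list also holds genes of high-energy phosphate and of calcium handling, only some of which were called. ckmb, a muscle creatine kinase, had 478, 105, 312 and 261 CPM in aged libraries, against 823, 1940.3, 2403 and 2147 CPM in young libraries, a 7.05-fold fall without overlap (adjusted p = 0.0371). ckma, its paralogue and the muscle gene with the highest level, had 17581, 3522, 16212 and 4419.9 CPM in aged libraries, against 10835, 20558, 51377 and 8771 CPM in young libraries. Here the shallow libraries aged 1 and aged 3 lay within the young range, and the log2 fold change of -1.28 ± 0.76 did not pass (adjusted p = 0.923). Parvalbumins, which bind calcium in fast fibres, had log2 fold changes of -2.80 for PVALB1, -2.76 for pvalb7 and -2.39 for pvalb4, of which only pvalb7 was called. For pvalb7 the groups overlapped, since young 1 at 112 CPM lay below aged 1 at 212 CPM (adjusted p = 0.0371). casq1b, the calsequestrin of the sarcoplasmic reticulum, lay just outside the threshold (log2 fold change -2.22 ± 0.58, adjusted p = 0.104). mss51, a mitochondrial gene of skeletal muscle, fell 6.64-fold, with 79.7, 90.4, 175 and 66.5 CPM in aged libraries, against 365, 916, 877 and 459.7 CPM in young libraries.

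Glycolytic enzymes were listed as forms typical of muscle and as other forms, and the lists differed in their medians. Of 7 tested genes of forms typical of muscle, 6 were lower in aged libraries, 5 of them at an unadjusted p below 0.05 and 3 past the threshold, with a median log2 fold change of -2.25. Over all tested genes 4.16% were lower at an unadjusted p below 0.05 and 0.631% were called lower. Of 16 tested genes of other forms, 9 were higher and 7 lower, with a median of 0.05. tpi1b and GPI stand in both lists, and tpi1b had the lowest fold change among the other forms. GAPDH was counted with the muscle forms alone, and whether its RNA came from muscle was not tested. ALDOAA stands in the skeletal muscle list as well, so part of this pattern repeats that of the muscle list. The strongest fall of all called genes was that of GAPDH on chromosome 5, the glyceraldehyde-3-phosphate dehydrogenase, with 425, 128, 624 and 72.1 CPM in aged libraries, against 1198, 4767, 7069 and 1469.6 CPM in young libraries. The groups did not overlap, and the difference was 13.1-fold (log2 fold change -3.71 ± 0.81, adjusted p = 0.0371). pgam2, the phosphoglycerate mutase of muscle, had 186, 37.7, 58.5 and 22.2 CPM in aged libraries, against 430.4, 1373, 820.0 and 238 CPM in young libraries, a 12.6-fold fall (adjusted p = 0.0237). eno3, the muscle enolase, was scarce and overlapped, at 0 to 33.3 CPM in aged libraries and 28.1 to 242 CPM in young libraries, and passed with an adjusted p of 0.0668. ALDOAA, an aldolase of high level, had 6108, 1872, 4287 and 1231 CPM in aged libraries, against 7336, 18407, 25872 and 5946 CPM in young libraries. Aged 1 lay just above young 4, and the log2 fold change of -2.25 ± 0.74 did not pass in edgeR (adjusted p = 0.279). The adjusted p of ALDOAA was 0.00558 in DESeq2 and 0.326 in limma voom, so the outcome depended on the tool. The log2 fold changes of the tested genes of other forms ranged from -2.11 to 0.86. LDHB (-0.16 ± 0.72), eno1a (-0.16), PGAM1A (0.08) and PFKPB (0.06), forms found outside muscle, were among those near 0.

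Not every member of the muscle list was lower. myh14, listed by its symbol, encodes a non-muscle myosin heavy chain of epithelia, and it had the most positive log2 fold change of the list, at 2.28 ± 0.65 (adjusted p = 0.149). Its level was 292, 41.4, 136 and 105 CPM in aged libraries, against 9.36, 29.1, 0 and 30.2 CPM in young libraries, without overlap. The count of 0 in young 3 allows a level of up to 84.8 CPM (3 counts, counting error only), above aged 2. MYH9 (0.26), myh9b (-0.18) and myh10 (0.32), the other non-muscle heavy chains, were near 0 on the log2 scale. atp2a1, the calcium pump of fast fibres, was also near 0 at 0.17, whereas atp2a1l, a related entry, stood at -1.44 with an unadjusted p below 0.05. The median of the list was negative in all 30 alternative settings, between -2.04 and -0.48.

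**Figure D2:**
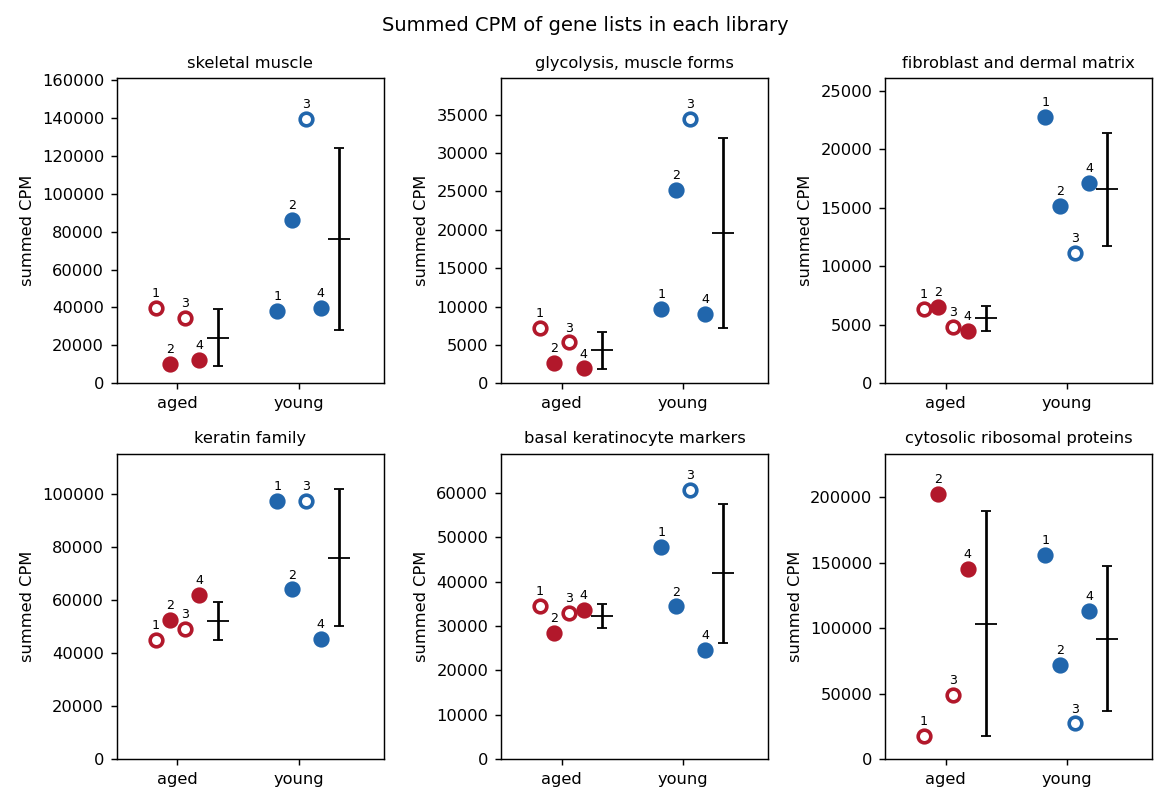
Summed CPM (vertical axis, linear, from 0) of 6 gene lists in each aged (red) and young (blue) library. Numbers are replicates, open symbols are libraries under 100000 counts, and black marks are means with SD (n = 4). For the dermal list the aged libraries lie at 4469.9 to 6542 CPM, all below the young libraries at 11169 to 22774 CPM, and for ribosomal proteins the open symbols lie low in both groups.

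The summed level of dermal matrix genes was lower in aged libraries, while their median member differed little. Of 83 fibroblast and dermal genes listed, 31 were tested, 19 were lower and 12 higher (median log2 fold change -0.24). Both called members fell, and another 5 were lower at an unadjusted p below 0.05, against none higher. Of all tested genes, 0.631% were called lower and 4.16% were lower at an unadjusted p below 0.05. Summed over the list, the level was 6374, 6542, 4813 and 4469.9 CPM in aged libraries, against 22774, 15159, 11169 and 17156 CPM in young libraries, so that no aged library reached the lowest young one. When this sum was added to the fit as a covariate, edgeR called 0 genes, with 174 at an unadjusted p below 0.05. The sum separates the groups and includes the called dermal genes, so this fit cannot tell it apart from age. No conclusion is drawn from the loss of calls.

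The called members were chains of collagen I, the main fibre of dermis and bone. Which cells of the section their RNA came from was not tested. col1a1b had 159, 365, 58.5 and 139 CPM in aged libraries, against 3247, 1853, 1272 and 3047 CPM in young libraries, and fell 12.7-fold (log2 fold change -3.67 ± 0.76, adjusted p = 0.0283). COL1A2 had 425, 987, 234 and 355 CPM in aged libraries, against 6409, 5276, 4524 and 4932 CPM in young libraries, and fell 10.5-fold (log2 fold change -3.39 ± 0.76, adjusted p = 0.0371). In both, the aged and young libraries were far apart, and aged 2 was the highest of the aged libraries. COL1A2 alone averaged 500.1 ± 334 CPM in aged libraries and 5285 ± 809.9 CPM in young libraries. sparc, a collagen-binding matrix protein, had 79.7, 1250.4, 273 and 433 CPM in aged libraries, against 6428, 2507, 1159 and 3120.5 CPM in young libraries. Aged 2 lay above young 3, and the log2 fold change of -2.67 ± 0.85 did not pass (adjusted p = 0.253). Other matrix genes below 0 at an unadjusted p below 0.05 were postnb (-1.94), col6a2 (-1.77), MFAP2 (-1.77), a protein of elastic microfibrils, and prelp (-1.43), a small leucine-rich proteoglycan. Thrombospondins and fibronectins stood on the other side, with log2 fold changes of 1.24 for THBS1, 0.92 for FN1, 0.89 for thbs2b and 0.88 for thbs2a, none at an unadjusted p below 0.05.

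The bone, pigment and nerve lists held further called members, whose RNA need not come from those tissues. In the bone and fin ray list 9 genes were tested, 3 higher and 6 lower, and 2 were called lower, against 0.631% of all tested genes. ENTPD5, an ectonucleotidase needed for bone mineralization in zebrafish, had 133, 30.1, 0 and 33.3 CPM in aged libraries, against 384, 138, 339 and 278 CPM in young libraries, a 7.36-fold fall (adjusted p = 0.0371). Aged 1 at 133 CPM came close to young 2 at 138 CPM without reaching it. otos, an otospiralin gene known from the mammalian inner ear, had 79.7, 11.3, 58.5 and 38.8 CPM in aged libraries, against 215, 247, 339 and 67.1 CPM in young libraries, with young 4 inside the aged range (adjusted p = 0.0585). COL2A1A, the collagen of cartilage, had a log2 fold change of -1.90 ± 0.60 (adjusted p = 0.242), whereas its second entry COL2A1 stood at -0.01, and PHEX, a regulator of mineral, at 0.29.

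Among 7 tested pigment cell genes, 5 were lower and 2 higher (median log2 fold change -1.03). FHL2, a LIM-domain cofactor also known from heart muscle, had 26.6, 45.2, 0 and 133 CPM in aged libraries, against 552, 785, 113 and 661 CPM in young libraries. The shallow young 3 lay within the aged range, and the gene fell 8.94-fold (adjusted p = 0.0371). GPNMB, a melanosome glycoprotein, had a log2 fold change of -1.67 ± 0.54 (adjusted p = 0.255). Of 8 tested nerve, Schwann cell and sensory genes, 5 were lower and 3 higher (median -0.52). s100b, a calcium-binding protein of glia and Schwann cells, had 26.6, 11.3, 0 and 0 CPM in aged libraries, against 37.4, 109, 113 and 128 CPM in young libraries. These values rest on 1, 3, 0 and 0 counts in aged libraries and 4, 15, 4 and 38 counts in young libraries (log2 fold change -3.54 ± 0.76, adjusted p = 0.0371). PMP22, a protein of peripheral myelin, did not overlap either and had a log2 fold change of -1.92 ± 0.64 (adjusted p = 0.299).

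Of the 28 called genes, 9 stood in the muscle or muscle glycolysis lists, 2 in the dermal and 2 in the bone list, and 16 in any list. Of all 3963 tested genes, 915 stood in any list, and the lists were chosen with earlier results of these data known. A further 7 of the called genes had no symbol in the table. Those outside the lists that fell and have a known role included htra1a, ANGPTL7, alpk2 and S100A2. htra1a, a secreted serine protease of the extracellular matrix, had 26.6, 26.4, 39.0 and 33.3 CPM in aged libraries, against 243, 189, 311 and 128 CPM in young libraries. Its aged values were alike and far below the young values, by 6.72-fold (log2 fold change -2.75 ± 0.54, adjusted p = 0.0237). ANGPTL7, a secreted angiopoietin-like protein, had 26.6, 181, 39.0 and 105 CPM in aged libraries, against 973, 705, 452 and 523 CPM in young libraries, a 6.62-fold fall without overlap (adjusted p = 0.0586). alpk2, an alpha-kinase known from heart muscle, had 53.1, 0, 19.5 and 16.6 CPM in aged libraries, against 46.8, 167, 141 and 111 CPM in young libraries, with young 1 below aged 1 (adjusted p = 0.0371). S100A2, a calcium-binding protein found in mammals in basal keratinocytes, had 53.1, 45.2, 175 and 72.1 CPM in aged libraries, against 327, 291, 169.7 and 453 CPM in young libraries. The shallow aged 3 and young 3 overlapped, and the gene fell 4.21-fold (log2 fold change -2.07 ± 0.52, adjusted p = 0.0906). EIF4A2, an RNA helicase of translation initiation, had 26.6, 18.8, 58.5 and 38.8 CPM in aged libraries, against 234, 145, 56.6 and 178 CPM in young libraries, again with the shallow libraries in overlap (log2 fold change -2.37 ± 0.57, adjusted p = 0.0611).

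Several called genes carry no symbol. The pseudogene ENSNFUG00015006971 on chromosome 16 had 611, 783, 292 and 272 CPM in aged libraries, against 5792, 3401, 3195 and 5835 CPM in young libraries, a 9.77-fold fall without overlap (adjusted p = 0.0444). The protein-coding entries ENSNFUG00015008952, ENSNFUG00015020555 and ENSNFUG00015017001 fell with log2 fold changes of -3.38, -2.62 and -2.37, each without overlap in CPM. A long non-coding RNA, ENSNFUG00015015138 on chromosome 19, fell with a log2 fold change of -3.13 and was at 0 in aged 1, aged 3 and young 3, the shallow libraries. No role is given for these entries in the sources used here.

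The 3 genes that rose in aged libraries were BX927253.1 and 2 long non-coding RNAs. BX927253.1, a protein-coding entry on chromosome 19 named after a clone, had 239, 71.6, 1169 and 88.7 CPM in aged libraries, against 9.36, 14.5, 0 and 13.4 CPM in young libraries. The counts behind them were 9, 19, 60 and 16 in aged libraries and 1, 2, 0 and 4 in young libraries. Aged 3 was the highest, and every aged value lay above every young one (log2 fold change 4.71 ± 0.88, 26.1-fold, adjusted p = 0.0237). The count of 0 in young 3 allows a level of up to 84.8 CPM (3 counts, counting error only), above aged 2. Without the 3 shallow libraries its log2 fold change was 2.70 and its adjusted p 0.161. ENSNFUG00015005564 on chromosome 10 had 9853, 1537, 7171 and 3289 CPM in aged libraries, against 290.1, 559.6, 1159 and 825 CPM in young libraries. It was highest in the shallow libraries aged 1 and aged 3 and rose 6.94-fold (log2 fold change 2.79 ± 0.71, adjusted p = 0.0916). ENSNFUG00015000206 on chromosome 2 had 133, 60.3, 77.9 and 111 CPM in aged libraries, against 0, 21.8, 28.3 and 16.8 CPM in young libraries (log2 fold change 2.48 ± 0.64, adjusted p = 0.0999). Over all 105 tested long non-coding RNAs, 76 were higher and 29 lower, with a median log2 fold change of 0.31, against 0.03 over 3744 protein-coding genes.

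**Figure D3:**
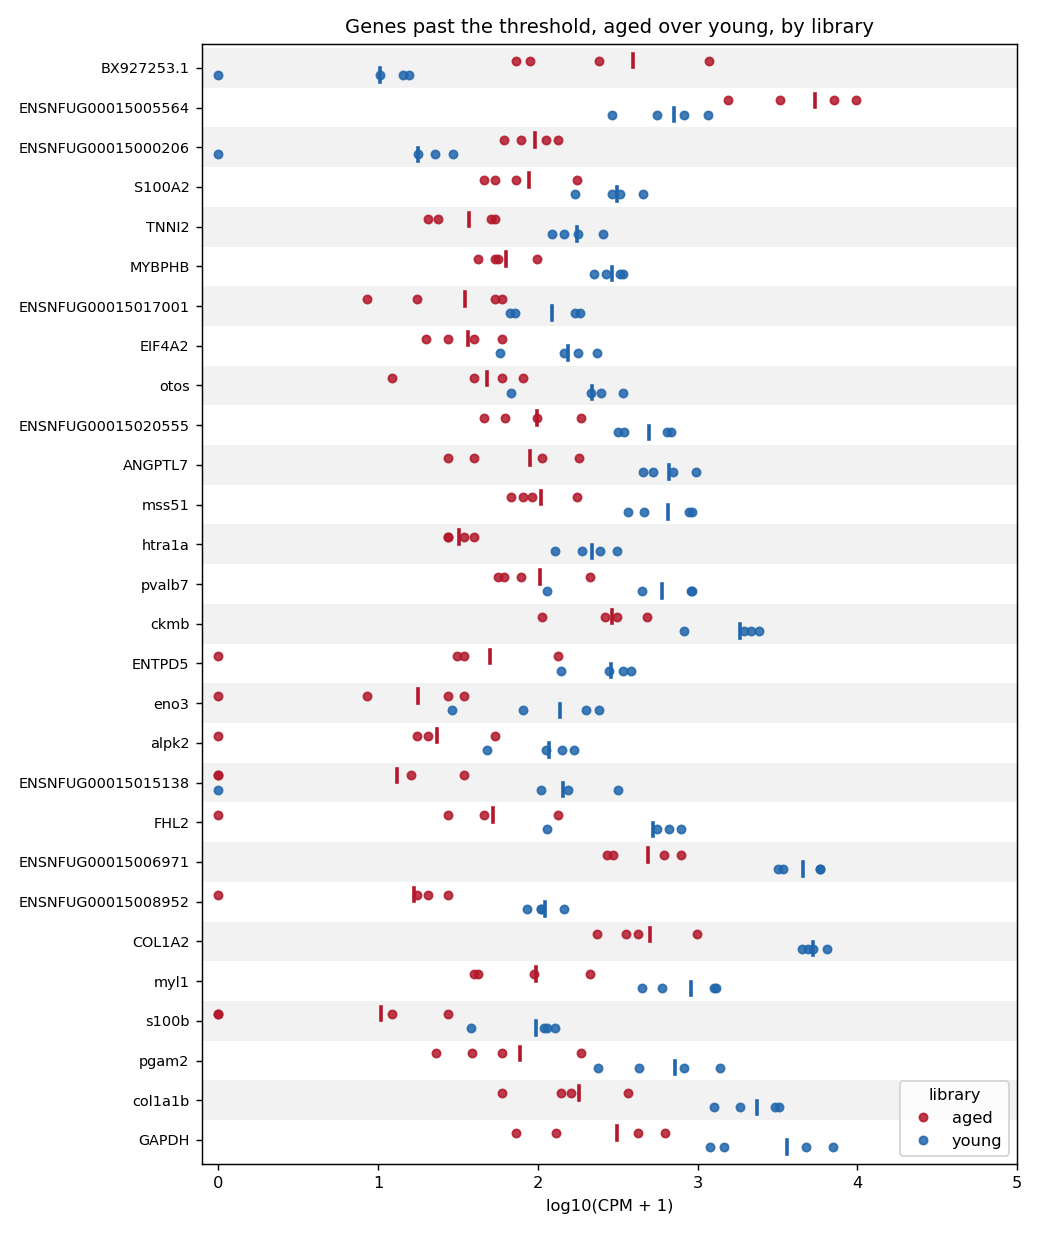
Level of the 28 called genes as log10 of CPM + 1 (horizontal axis) in each aged (red, upper row of a gene) and young (blue, lower row) library, ordered by fold change. Points are libraries and vertical strokes are the logs of group means plus 1. For 20 genes, such as COL1A2 and myl1, the colours do not overlap, and for 8, such as FHL2 and eno3, they do.

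Just outside the threshold stood 6 genes with adjusted p-values of 0.102 to 0.108, all lower in aged libraries. Besides ACTA1 and casq1b they were tpi1b, a triosephosphate isomerase (log2 fold change -2.11 ± 0.56), apoda.1, an apolipoprotein D (-2.26 ± 0.59), ACY1, an aminoacylase (-2.20 ± 0.58), and ENSNFUG00015016857 (-3.01 ± 0.78). apoda.1 had 26.6, 64.0, 156 and 227 CPM in aged libraries, against 524, 836, 396 and 530.1 CPM in young libraries, without overlap.

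No gene of the keratinocyte lists was called, against 0.707% of all tested genes. In lists of this length that share can give no call, so stable levels of these genes are not shown. Of 5 tested keratins, 4 were lower in aged libraries and 1 higher (median log2 fold change -0.52), and none had an unadjusted p below 0.05. The summed keratin level was 44855 to 61741 CPM in aged libraries and 45069 to 97127 CPM in young libraries, and young 4 lay within the aged range. krt5 (log2 fold change -0.59 ± 0.73) and krt15 (0.03 ± 0.93) had errors as large as or larger than their differences. krt1-19d, a type I keratin, had 6028, 15427, 6917 and 17913 CPM in aged libraries, against 35593, 23531, 28728 and 13774 CPM in young libraries. Young 4 lay among the aged libraries, and the log2 fold change of -1.16 ± 0.75 did not pass (adjusted p = 0.950). cyt1, another type I keratin, had a log2 fold change of -0.16 ± 0.72 and KRT18, a keratin of simple epithelia, -0.52 ± 0.71. Of 10 tested basal markers 6 were higher and 4 lower (median 0.03), and all 6 tested suprabasal and surface markers were lower (median -0.64), none at an unadjusted p below 0.05. Without the 3 shallow libraries the basal median was 0.55 and the suprabasal median -0.14. With a covariate for dermal genes, which cannot be told apart from age here, the suprabasal median turned to 0.86.

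Adhesion genes of the basal layer held no called member, against 0.707% called of all tested genes, a share that can give no call in a list of this length. Of 23 tested genes of hemidesmosomes and the basement membrane, 15 were higher and 8 lower, with a median log2 fold change of 0.18. itgb4, the integrin subunit of hemidesmosomes, had 53.1, 365, 175 and 416 CPM in aged libraries, against 159, 319.7, 56.6 and 483 CPM in young libraries (log2 fold change 0.04 ± 0.70). plecb, the plectin that ties keratins to them, stood at 0.04 ± 0.69. Both were lowest in shallow libraries or in young 1, and neither group stood apart. The integrin alpha 6 entries ITGA6A (1.00) and ITGA6 (0.70) and the collagen IV chains COL4A1 (0.18), COL4A3 (0.77) and COL4A6 (0.24) had positive log2 fold changes, whereas the laminin chains LAMB1B (-0.98) and LAMB2 (-0.94) and NID1A (-0.78), a nidogen, had negative ones.

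Among 16 tested genes of desmosomes and epithelial junctions, 10 were higher and 6 lower, with a median log2 fold change of 0.55, which was 0.04 without the 3 shallow libraries. tjp2a, a tight junction scaffold, had 212, 67.8, 58.5 and 44.4 CPM in aged libraries, against 9.36, 43.6, 28.3 and 33.6 CPM in young libraries, without overlap (log2 fold change 1.34 ± 0.58, unadjusted p = 0.0295, adjusted p = 0.690). CTNNB1, the β-catenin of adherens junctions and Wnt signalling, had 79.7, 41.4, 19.5 and 44.4 CPM in aged libraries, against 93.6, 43.6, 56.6 and 178 CPM in young libraries (log2 fold change -1.20 ± 0.54, adjusted p = 0.732). CLDN1, a claudin of the epidermal barrier, had 0, 467, 97.4 and 205 CPM in aged libraries, against 131, 65.4, 84.8 and 154 CPM in young libraries. Its aged values spread beyond the young range on both sides. dspa, the desmoplakin, stood at -0.43 ± 0.65 on the log2 scale. Of 10 tested epidermal transcription factors 4 were higher and 6 lower (median -0.03), from tfap2a at 0.94 to KLF6 at -0.42, with tp63 at -0.28 ± 0.67 and the grainyhead factors grhl1, grhl2b and grhl3 at 0.36, 0.68 and -0.32.

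**Figure D4:**
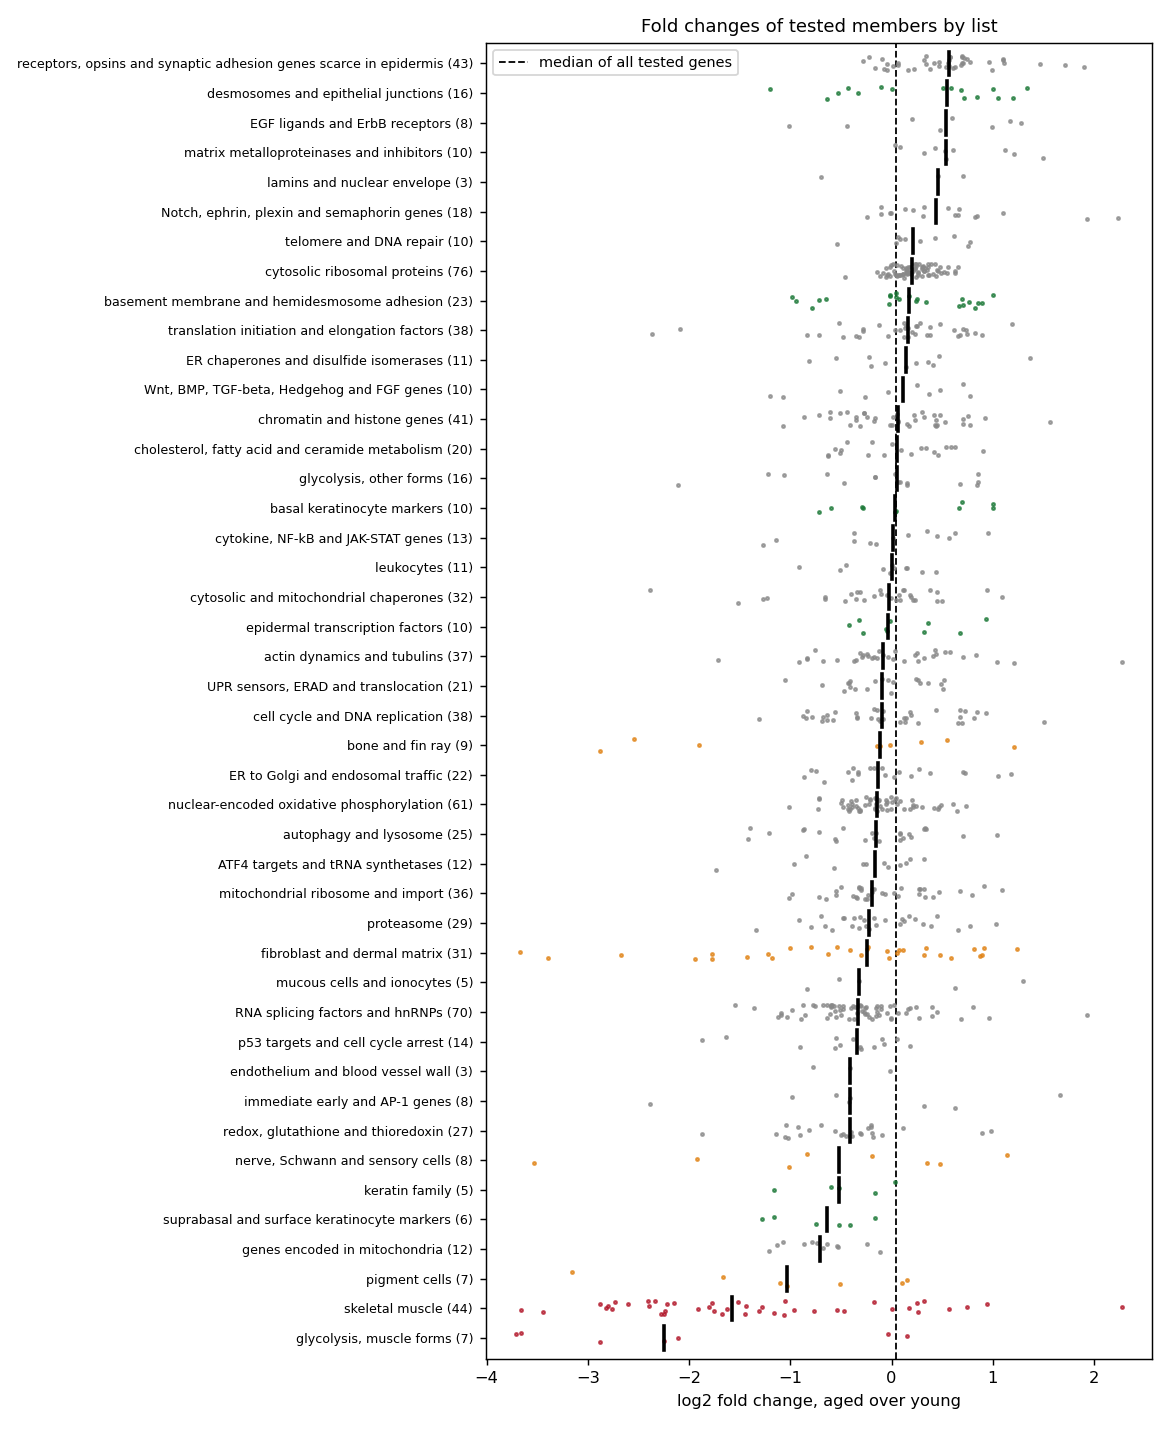
Log2 fold change, aged over young (horizontal axis), of the tested members of each gene list with at least 3 (vertical axis, number tested in brackets). Points are genes, black strokes are list medians and the dashed line is the median of all tested genes, 0.05. Muscle lists are red, dermal, bone, pigment and nerve lists orange, epidermal lists green and others grey. The muscle glycolysis (-2.25) and skeletal muscle (-1.57) medians lie lowest.

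Signalling families were thinly covered and held no called gene, against 0.707% called of all tested genes, a share that can give no call in lists of this length. Of 8 tested EGF ligands and ErbB receptors, 6 were higher and 2 lower (median 0.54), and without young 4 the median was -0.50. EGFRA, an epidermal growth factor receptor, had a log2 fold change of 0.60 ± 0.57, HBEGFA, a ligand of it, 1.17 and ERBB3B -1.01 ± 0.56. Among 18 tested Notch, ephrin, plexin and semaphorin genes, 13 were higher and 5 lower (median 0.44), and without young 1 the median was 0.08. Their sum was 4780, 1849, 4637 and 2978 CPM in aged libraries, against 1104, 2652, 2743 and 2366 CPM in young libraries. It was highest in the shallow libraries of each group. Without the 3 shallow libraries the mean sums were 2414 CPM in aged and 2041 CPM in young libraries. PLXNA2, a semaphorin receptor, had 212, 45.2, 117 and 94.3 CPM in aged libraries, against 9.36, 29.1, 0 and 23.5 CPM in young libraries, without overlap (log2 fold change 2.24 ± 0.61, adjusted p = 0.136). The count of 0 in young 3 allows a level of up to 84.8 CPM (3 counts, counting error only), above aged 2. Without the 3 shallow libraries the log2 fold change of PLXNA2 was 1.73 and its edgeR adjusted p 0.687. SEMA3AB, a secreted semaphorin, stood at 1.93 ± 0.79 (adjusted p = 0.626), with overlap. Of 10 tested Wnt, BMP, TGF-β, Hedgehog and FGF genes 5 were higher and 5 lower, and SMAD5, which carries BMP signals, had a log2 fold change of -1.08 ± 0.47 (adjusted p = 0.696). Among immediate early genes NR4A1, an orphan nuclear receptor, had 106, 18.8, 19.5 and 5.55 CPM in aged libraries, against 84.2, 124, 141 and 154 CPM in young libraries. Only aged 1 reached the young range (log2 fold change -2.39 ± 0.79, adjusted p = 0.281). atf3, a stress-induced factor, stood on the other side at 1.66 ± 0.71 (adjusted p = 0.681). ccl25a, a chemokine of high level, had 1248, 3066, 974 and 2557 CPM in aged libraries, against 2592, 1352, 848 and 1084 CPM in young libraries (log2 fold change 0.35 ± 0.74), and the shallow libraries were the lowest of each group.

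Genes of cytosolic ribosomal proteins were lowest in the shallow libraries of both groups. Their sum was 17395, 202652, 48654 and 145553 CPM in aged libraries, against 155836, 71922, 27088 and 113370.0 CPM in young libraries. The 3 lowest of these sums were those of the 3 shallow libraries. Of 76 tested genes 65 were higher and 11 lower in aged libraries, with log2 fold changes between -0.46 and 0.65 and a median of 0.20, and none had an unadjusted p below 0.05. Without the 3 shallow libraries the median was 0.67. rpl13a had 584, 5661, 1890.1 and 4902 CPM in aged libraries, against 5726, 2652, 679 and 3355 CPM in young libraries, a log2 fold change of 0.04 ± 0.82. Of 38 tested initiation and elongation factors 26 were higher and 12 lower (median 0.16), and EIF4A2 was the called one. EIF3F, a subunit of an initiation complex, had 345, 599, 546 and 505 CPM in aged libraries, against 262, 189, 141 and 235 CPM in young libraries, without overlap (log2 fold change 1.19 ± 0.53, adjusted p = 0.732). eif4eb, a cap-binding protein, had a log2 fold change of -2.09 ± 0.70 (adjusted p = 0.301).

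Protein folding genes held no called member, against 0.707% of all tested genes. In lists of this length that share can give no call, so stable levels are not shown. The unfolded protein response raises chaperones of the endoplasmic reticulum (ER) when folding there is impaired. Of 11 tested ER chaperones and disulfide isomerases 6 were higher and 5 lower (median 0.14). That median was positive in 20 of 30 alternative settings and ranged from -0.37 to 0.36. Of 21 tested sensors and genes of ER-associated degradation and translocation 8 were higher and 13 lower (median -0.09). HSP90B1, the HSP90 of the ER, had 372, 309, 643 and 349 CPM in aged libraries, against 533, 690.4, 961 and 587 CPM in young libraries. Only aged 3 reached the young range (log2 fold change -0.81 ± 0.58, adjusted p = 0.974). VCP, the ATPase that extracts misfolded proteins, stood at -1.06 ± 0.51 (edgeR unadjusted p = 0.0481, adjusted p = 0.800). NUPR1, a target of ATF4, stood at -1.73 ± 0.58 without overlap (adjusted p = 0.288). CHAC1, another target, stood at 0.09 ± 0.74.

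Cytosolic and mitochondrial chaperones were split, with 15 of 32 tested genes higher and 17 lower (median -0.03). hsp90ab1, the constitutive HSP90, had 6374, 7017, 7054 and 7514 CPM in aged libraries, against 4725, 5109, 5485 and 5218 CPM in young libraries. The groups were tight and did not overlap in CPM, but the log2 fold change in the fit was 0.38 ± 0.66 (adjusted p = 0.996). hspa8, a constitutive HSP70, had 3506, 11231, 11399 and 12134 CPM in aged libraries, against 14728, 9374, 6419 and 6660.3 CPM in young libraries (log2 fold change -0.04 ± 0.75). HSPB6, a small heat shock protein abundant in muscle, had 26.6, 11.3, 19.5 and 22.2 CPM in aged libraries, against 37.4, 87.2, 84.8 and 154 CPM in young libraries, without overlap (log2 fold change -2.38 ± 0.65, adjusted p = 0.136). HSPB1 and BAG3, which also act in muscle fibres, stood at -1.52 ± 0.64 and -1.23 ± 0.51. Of 29 tested proteasome genes 11 were higher and 18 lower (median -0.22), and of 25 genes of autophagy and the lysosome 11 were higher and 14 lower (median -0.15). Against 4.16% of all tested genes, 3 of the 25 were lower at an unadjusted p below 0.05. Those were CTSK (-1.42), a collagen-degrading cathepsin, atp6v1e1a (-1.40), a proton pump subunit, and GABARAPA (-1.21), an autophagosome protein.

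All 12 tested genes encoded in mitochondria were lower in aged libraries, with a median log2 fold change of -0.70 and none at an unadjusted p below 0.05. Their summed level was 14633, 23329, 15666 and 21179 CPM in aged libraries, against 40702, 27833, 20104 and 22538 CPM in young libraries, where aged 2 lay above young 3 and young 4 and aged 4 above young 3. CYTB, cytochrome b, had 1912, 5303, 3683 and 4908 CPM in aged libraries, against 9937, 6497, 3195 and 3496 CPM in young libraries (log2 fold change -0.64 ± 0.72). Young 1 and young 2 were the highest. The largest difference was that of COX3 at -1.21. Of 61 tested nuclear genes of oxidative phosphorylation 19 were higher and 42 lower (median -0.14), and without the 3 shallow libraries their median was 0.16, whereas that of the mitochondrial genes was -0.47. Genes of redox balance and iron storage were mostly lower, 24 of 27 tested (median -0.41), but their median was 0.57 with a covariate for dermal genes and -2.09 with one for muscle genes. The dermal covariate, whose sum did not overlap between the groups, cannot be told apart from age. Nor can the muscle covariate, whose sum overlapped only at aged 1 and young 1. FTL, a ferritin, had a log2 fold change of -1.14 ± 0.81, prdx1 -0.39 and SOD1 -0.30, while hmox1a, the heme oxygenase, stood at 0.98 and prdx4 at 0.89. TXNIPA, a thioredoxin-binding protein, had 159, 37.7, 117 and 122 CPM in aged libraries, against 196, 436, 509 and 295 CPM in young libraries, without overlap (log2 fold change -1.87 ± 0.54, adjusted p = 0.162). Of 20 tested genes of lipid metabolism 11 were higher and 9 lower (median 0.05).

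Genes of growth arrest were mostly lower in aged libraries, but none was called, against 0.707% of all tested genes. Of 14 tested p53 targets and arrest genes 12 were lower and 2 higher (median -0.34), against 1864 lower of all 3963 tested genes. At an unadjusted p below 0.05, 2 were lower, against 4.16% of all tested genes. The median was negative in all 30 alternative settings, between -0.81 and -0.19, but these reuse the same libraries. The summed level was 2284, 1797, 3994 and 3283 CPM in aged libraries, against 2395, 4665, 3959 and 3781 CPM in young libraries. The groups overlapped, with aged 3 above every young library except young 2. CCNG1, a cyclin induced by p53, had 345, 151, 292 and 161 CPM in aged libraries, against 243, 952, 1046 and 493 CPM in young libraries, with young 1 inside the aged range (log2 fold change -1.64 ± 0.55, adjusted p = 0.303). Within each group it ranked the libraries in the same order as the summed muscle genes. Whether its RNA came from muscle or from keratinocytes was not tested. CDKN1A, the p21 inhibitor of cyclin-dependent kinases, stood at -0.08 on the log2 scale. Cell cycle and replication genes were split, 17 of 38 tested higher and 21 lower (median -0.10). lig1, the DNA ligase of replication, had 186, 60.3, 214 and 116 CPM in aged libraries, against 9.36, 50.9, 56.6 and 53.7 CPM in young libraries, without overlap (log2 fold change 1.51 ± 0.51, adjusted p = 0.299). POLD2, a subunit of DNA polymerase delta, stood at -1.31 ± 0.55 (adjusted p = 0.649).

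Of 70 tested splicing factors and RNA-binding proteins, 56 were lower and 14 higher in aged libraries (median -0.33), against 2099 higher and 1864 lower of all tested genes. U2AF1, which recognizes the end of introns, had 26.6, 37.7, 39.0 and 27.7 CPM in aged libraries, against 93.6, 87.2, 141 and 57.0 CPM in young libraries, without overlap (log2 fold change -1.35 ± 0.52, adjusted p = 0.537). DDX17, an RNA helicase, had 79.7, 60.3, 97.4 and 111 CPM in aged libraries, against 131, 153, 113 and 265 CPM in young libraries (log2 fold change -1.04 ± 0.46, adjusted p = 0.725). SNRPD1, a core protein of the spliceosome, stood on the other side at 1.93 ± 0.74, with few counts. None of the 70 was called, against 0.707% of all tested genes, a share that can give no call in a list of this length. Chromatin and histone genes were 24 higher and 17 lower of 41 tested (median 0.06), and 9 of 10 tested DNA repair and telomere genes were higher (median 0.21). None of these 10 had an unadjusted p below 0.05, and without a filter on low counts the median was -0.02. The sum of the DNA repair and telomere list was highest in the shallow libraries aged 1 and aged 3, at 1354 and 1481 CPM. Without the 3 shallow libraries its means were 908 CPM in aged and 823 CPM in young libraries.

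Cell types that a fin section could also hold were represented by few tested genes. Of 11 tested leukocyte genes 6 were higher and 5 lower (median 0.00), and ptprc, the leukocyte antigen CD45, had 79.7, 82.9, 97.4 and 139 CPM in aged libraries, against 65.5, 124, 113 and 101 CPM in young libraries (log2 fold change 0.02 ± 0.45). Only 3 genes of endothelium and vessel wall and 2 of erythrocytes passed the filter, all lower in aged libraries and none called. The sum of all listed vessel genes went the other way, at 933 ± 265 CPM in aged and 761 ± 138 CPM in young libraries, with overlap. Without the 3 shallow libraries its means were 726 and 808 CPM. The erythrocyte sum was 519 ± 150 CPM in aged and 763 ± 134 CPM in young libraries, also with overlap. The tested members of the list of matrix metalloproteinases, related proteases and inhibitors were all on the positive side, 10 of 10 (median 0.53), but the median was -0.14 without the 3 shallow libraries. ADAM8B had 79.7, 56.5, 58.5 and 66.5 CPM in aged libraries, against 0, 21.8, 28.3 and 33.6 CPM in young libraries, without overlap (log2 fold change 1.50 ± 0.65, adjusted p = 0.690). mmp13a, the collagenase, stood at 1.21 ± 1.03.

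Receptors, opsins and synaptic adhesion genes, which epidermis uses little, were detected at low levels in all libraries. Of 43 tested 36 were higher and 7 lower in aged libraries (median 0.57), and the median without the 3 shallow libraries was 0.14. Their sum was 10092, 2429, 7541 and 3821 CPM in aged libraries, against 1450.3, 4375, 5599 and 3107 CPM in young libraries. In aged libraries the sum was highest in the shallow libraries aged 1 and aged 3, and in young libraries it was highest in the shallow young 3. cacna1da, a calcium channel of nerve and sensory cells, had the largest log2 fold change of the list at 1.90 ± 0.67 (adjusted p = 0.380), from 8 libraries with 0 to 212 CPM. The part of this pattern in the other positive differences of low-count genes was not tested gene by gene, and with the list's summed level as a covariate edgeR called 102 genes, 20 higher and 82 lower, among them all 28.

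**Figure D5:**
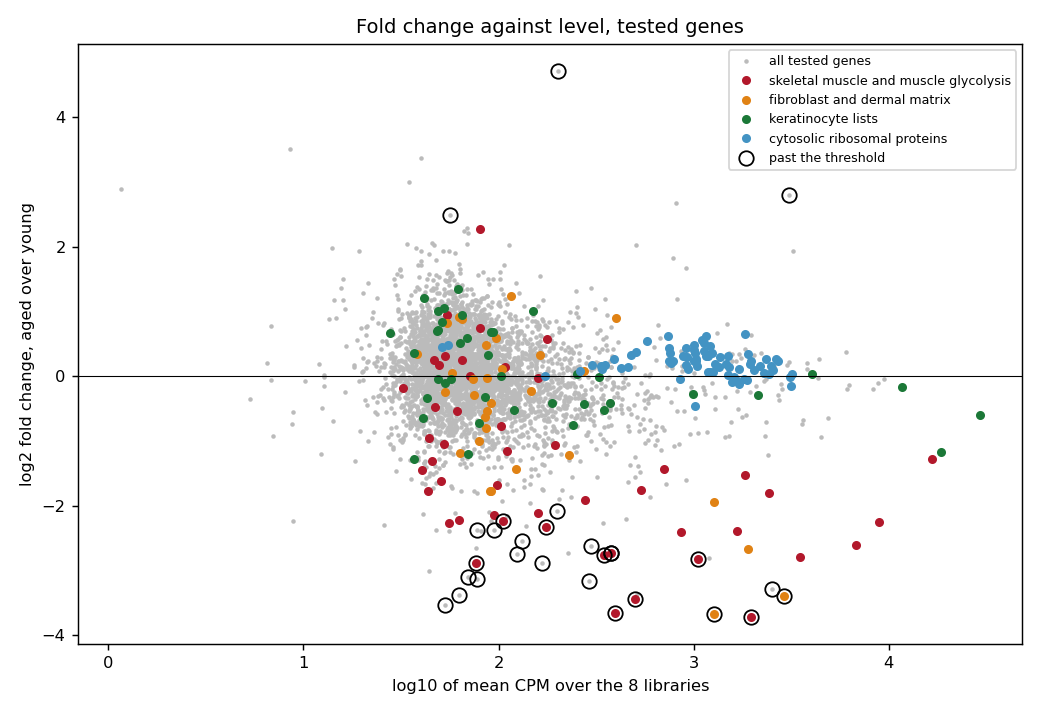
Log2 fold change, aged over young (vertical axis), against the log10 of the mean CPM over the 8 libraries (horizontal axis) for 3963 tested genes (grey). Coloured points are muscle (red), dermal (orange), keratinocyte (green) and cytosolic ribosomal protein (blue) genes, and black rings are the 28 called genes. Most called genes lie between log2 fold changes of -3.71 and -2.07, while keratins at the right lie between -1.16 and 0.03 and ribosomal proteins between -0.46 and 0.65.

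The 10 genes with the highest mean level included keratins and muscle genes. They were krt5, krt1-19d, ckma, cyt1, ALDOAA, hspa8, ybx1, ENSNFUG00015002266, ACTA1 and ACTG1, and none of them was called. ybx1, an RNA-binding protein of stored messages, had 12243, 6941, 9041 and 7232 CPM in aged libraries, against 8103, 9287, 11649.6 and 5976 CPM in young libraries (log2 fold change -0.11 ± 0.67). ACTG1, a cytoplasmic actin, had 7303, 5838, 6118 and 5268 CPM in aged libraries, against 5399, 6388, 7549.6 and 6089.9 CPM in young libraries, with overlapping ranges (log2 fold change -0.14 ± 0.66), against -2.60 for ACTA1, the muscle actin.

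Among genes with a symbol whose groups did not overlap in CPM, the largest positive log2 fold changes after BX927253.1, myh14 and PLXNA2 belonged to 7 genes at low level. zgc:162025 stood at 1.98 ± 0.58 (adjusted p = 0.168), mlsl at 1.94 ± 0.66, OLA.21581 at 1.72 ± 0.53, cherp at 1.67 ± 0.68, lsr at 1.64 ± 0.75, PRR12 at 1.61 ± 0.51 and CHCHD3 at 1.60 ± 0.57, and none of the 7 passed. cherp, a calcium homeostasis and splicing protein, was the exception in level, with 2178, 761, 1909.5 and 826 CPM in aged libraries, against 112, 618, 622 and 295 CPM in young libraries. It was highest in the shallow libraries aged 1 and aged 3. lsr, the angulin of tricellular junctions, had 79.7, 22.6, 77.9 and 33.3 CPM in aged libraries, against 9.36, 7.27, 0 and 20.1 CPM in young libraries. CHCHD3, a protein of mitochondrial cristae, had 53.1, 64.0, 195 and 61.0 CPM in aged libraries, against 9.36, 36.3, 0 and 36.9 CPM in young libraries. In both, young 3 was at 0, where a count of 0 allows a level of up to 84.8 CPM (3 counts, counting error only).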

How the data were processed

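UMI counts were obtained by PIC from 4 aged, 4 young and 3 aged (Tm) libraries. Per the submitters' processing notes the authors used UMI-tools 1.0.0, HISAT2 2.1.0, featureCounts 1.6.4 and DESeq2 1.20.0. The deposited values are whole, unnormalized counts of UMIs per gene for 22954 genes, 7487 of them without a symbol; the genome build is not given in the sources used here. No column of per-sample values was left unused (0). No genome matched the table's identifiers here, so coordinates and sequences of genes, and counts shared by paralogues, were not analysed.

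Counts were analysed in R 4.3.3 with edgeR 4.0.16 (TMM, filterByExpr by group, glmQLFit and glmQLFTest, two-sided) with all 11 libraries in the model. The aged (Tm) libraries thus took part in the filter, the scaling and the estimate of spread. The threshold was a Benjamini-Hochberg adjusted p below 0.1. The standard error given with a log2 fold change is the size of that fold change over the square root of its F statistic. It thus carries the same information as the unadjusted p. It rests on a spread moderated over genes and estimated from all 11 libraries, not on the gene's aged and young values alone. CPM is counts per 1000000 of a library's total. Library measures were compared by two-sided exact permutation tests over 70 groupings. Counting error alone is covered by the limits at a count of 0. Total counts were 35366 to 298033 in the 8 libraries.

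The comparison, the 45 gene lists and the rule for named genes were chosen with earlier results of these data known. Lists are described by counts and medians, without a test. The rule names each called gene, in each list up to 4 members of lowest p below 0.05 and the 2 of highest level, cell type markers, the 10 genes of highest level, and, of the genes with a symbol whose groups do not overlap, the 10 with the largest rise and the 10 with the largest fall. Other list members given with a log2 fold change alone were chosen after their values were seen, to show the spread of a list.

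As alternatives, scaling by RLE, by the upper quartile or by total counts alone was run, as were TMM without muscle and dermal genes, no filter, a filter of 10 counts in 3 libraries, a filter on the 8 libraries, DESeq2 1.42.0, limma voom (limma 3.58.1), a model of the 8 libraries alone, thinning to 35366 counts, thresholds of 0.05 and 0.5, a replicate block, covariates for muscle, dermal and scarce genes, and leaving out each library. Added after the data were seen were fits without each aged (Tm) library, without the 3 libraries under 100000 counts and without genes over 1000 counts in a library, and DESeq2 and voom on the 8 libraries. The group fits of edgeR, DESeq2 and limma voom were tested on simulated counts.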

Additional observations from a re-analysis of the deposited data

Results flagged for a closer look

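In 12 of 212 groups of 4 libraries examined, the highest or lowest library lay apart from the other 3 by a gap that passed Dixon's critical value as a share of the group's whole range, and chance gives about 1 in 20. That share is given for each, and no explanation was tested. Aged 1, a library under 100000 counts, stood apart 6 times. It was the highest aged library for the summed CPM of desmosomes and epithelial junctions (gap 0.864, 2125 CPM), for that of erythrocyte genes (gap 0.909, 744 CPM), for tjp2a (gap 0.861, 212 CPM) and for NR4A1 (gap 0.862, 106 CPM). It was the lowest for the summed CPM of cytosolic and mitochondrial chaperones (gap 0.862, 14235 CPM) and for hspa8 (gap 0.895, 3506 CPM). Aged 3, also under 100000 counts, was the highest aged library for BX927253.1 (gap 0.847, 1169 CPM) and for CHCHD3 (gap 0.923, 195 CPM). Aged 4 was the highest for the summed pigment cell genes (gap 0.966, 1192 CPM).

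Among young libraries, young 1 was the lowest for the summed chromatin and histone genes (gap 0.946, 3911 CPM) and for lig1 (gap 0.880, 9.36 CPM). Young 4 was the highest for the summed glycolysis genes of other forms (gap 0.877, 2667 CPM).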

How the results depend on the processing

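Against 28 called genes (3 higher and 25 lower in aged libraries), total count scaling called 14 (3 higher, 11 lower), DESeq2 78 (11 higher, 67 lower) or 71 on the 8 libraries alone (10 higher, 61 lower), edgeR on the 8 libraries alone 0 (0 higher, 0 lower), and thinning 10 (3 higher, 7 lower), where fewer genes could be tested. A covariate for muscle genes called 1093 (436 higher, 657 lower), for dermal genes 0 (0 higher, 0 lower) and for scarce genes 102 (20 higher, 82 lower). The dermal sum did not overlap between the groups, so that covariate cannot be told apart from age. The muscle sum overlapped only at aged 1 and young 1, so the same limit holds for it. A threshold of 0.5 called 106 (24 higher, 82 lower) and one of 0.05 19, 1 of them higher. Without a filter 1 gene was higher, with the filter on the 8 libraries 5, and with limma voom 6. RLE called 30 and upper quartile 28. Leaving out 1 aged or young library gave 1 to 32 called genes, 1 to 7 higher and 0 to 29 lower, with aged 4 giving the fewest, and without aged (Tm) 1 there was 1 higher. The cause was not tested. The difference in total counts per library, aged minus young mean, was -54705.5 to 40418 when a library was left out. Under the muscle covariate 27 of 190 named genes changed sign, and 7 of these then passed the threshold, with log2 fold changes of -2.07 for CORO1A, -1.61 for RAC2, -2.97 for apoeb, -3.39 for krt15, -2.06 for lcp1, -2.66 for rpl13a and -3.62 for ssr2. Of 44 list medians, 8 kept their sign under every alternative run, and 34 moved under the muscle covariate and 22 under the dermal one by more than the spread between replicates. Same-numbered aged and young libraries had correlations of their deviations of -0.509, -0.246, 0.327 and 0.325. Pairs of unlike number ranged from -0.559 to 0.615. Whether libraries of the same number shared a preparation was not tested, and these correlations cannot settle it. A replicate block called 19 genes, 1 of them higher, 18 shared with the 28. Depth limits all genes below about 100 CPM, for which the shallow libraries hold few counts.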
